A study of Mus musculus with 10 samples.

Results

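Matricellular proteins are secreted into the extracellular matrix, where they act mainly as signals between matrix and cells rather than as load-bearing fibres. They bind integrins, other cell-surface receptors, growth factors and collagen, and they are known for low levels in the resting adult heart and for appearing in injured or loaded myocardium, largely from fibroblasts and recruited macrophages. Here 10 genes of this class were followed by name: periostin (Postn), tenascin C (Tnc), osteopontin (Spp1), Cthrc1, Sparc, its relative Sparcl1, and the thrombospondins Thbs1, Thbs2, Thbs3 and Thbs4. Each of the 10 symbols matched 1 of the 40690 genes counted, and all 10 passed the filter on low counts that left 13622 genes.

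The samples were heart ventricles of male C57BL/6 mice aged 10 weeks, with 5 mice that had undergone a sham operation for ischemia-reperfusion and 5 naive mice that were not operated. All mice were wild type, per the study's title. A sham operation is the surgical control for an experiment in which a coronary artery is closed and reopened. The sources used here do not give the time from surgery to tissue collection.

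Polyadenylated RNA was made into single-end libraries without strand information, and reads were counted per gene. Library totals were 10654107 to 21537135 counts in sham and 9683181 to 17577906 in naive libraries. Values below are CPM, counts scaled to a common library size with TMM factors, a normalisation that assumes most genes do not differ. In these units 3 counts, taken as the floor of detection, equal 0.122 to 0.260 CPM in sham and 0.185 to 0.357 CPM in naive libraries. The tissue label was checked with cardiac myosin Myh6, which stood at 30509 ± 2147 CPM in sham and 38652 ± 998 CPM in naive libraries (SD, n = 5 each), and with the ventricular light chain Myl2, at 3916 ± 759 CPM in sham and 4988 ± 432 CPM in naive libraries. Of 4 atrial markers, which summed to 39.5 to 138.1 CPM in sham and 41.3 to 56.8 CPM in naive libraries, Nppa was higher, Myl4 and Myl7 did not pass and Sln, with 1 count in sham and 0 in naive libraries, was not tested. Nppa, Myl4 and Myl7 were each highest in sham 4 among the sham libraries, Myl7 at 3.30 CPM against 0.134 to 0.734 CPM in the other 4. The first principal component of all tested genes, with 53.5% of the variance, placed the 5 sham libraries on one side and the 5 naive libraries on the other.

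Of the 10 genes, 9 were higher in sham ventricles, 0 were lower and 1, Sparcl1, did not pass (edgeR's quasi-likelihood test, with p adjusted by Benjamini-Hochberg over all tested genes and a threshold of 0.05). Among all tested genes 17.2% were called higher. At least a 2-fold rise was called for all 9, against 7.3% of tested genes. A rise of at least 4-fold was called for 6 members, against 2.12%, and of at least 8-fold for 4 members, Postn, Tnc, Spp1 and Cthrc1, against 0.448%. In each of the 9, the lowest sham library exceeded the highest naive one, a pattern found in 13.6% of tested genes. The median log2 fold change was 2.41 for the 10 members and -0.05 for all tested genes. The members were chosen with earlier results of these data known, so these counts describe the class and do not test it. In whole tissue, a change in RNA per cell and a change in the number of cells that make it cannot be told apart.

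**Figure D1:**
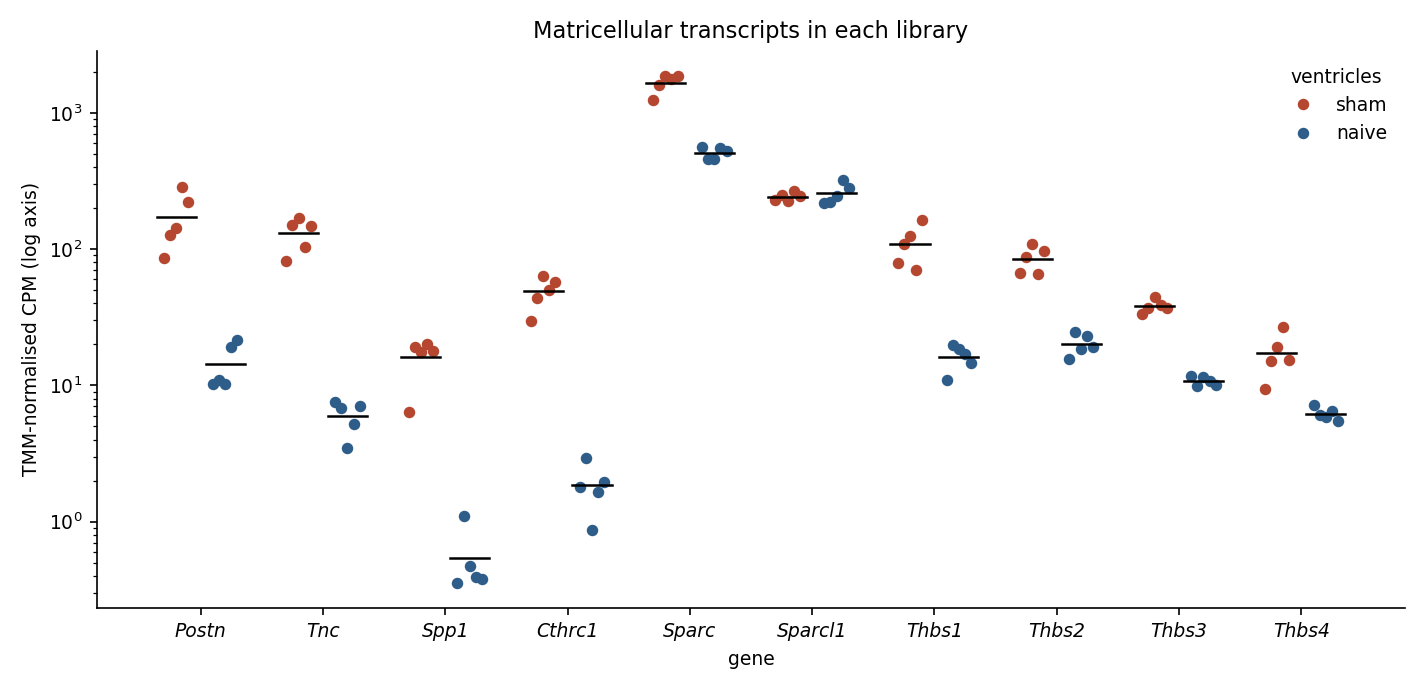
TMM-normalised CPM of the 10 genes on a log axis, with a point per library, sham (red) left of naive (blue), and black bars for group means (n = 5 each). The groups overlap in Sparcl1 and in none of the other 9 genes; Sparc lies highest, at a mean of 1669.6 CPM in sham and 512 CPM in naive libraries.

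Osteopontin, a phosphorylated ligand of integrins and CD44 that macrophages and other cells secrete, showed the largest fold of the class. Spp1 (chromosome 5, 104435118 to 104441050, plus strand, GRCm38) had 6.41, 19.1, 17.6, 20.1 and 17.8 CPM in sham 1 to 5, against 0.357, 1.11, 0.474, 0.392 and 0.379 CPM in naive 1 to 5. The groups did not overlap, although sham 1 stood well below the other sham libraries and naive 2 above the other naive ones. The naive level rests on 38 counts in 5 libraries, against 1499 counts in the sham libraries, and naive 1 was at the floor. The log2 fold change was 4.82 ± 0.37 (SE, n = 5 per group, edgeR adjusted p = 2.22e-07), a 28.2-fold rise with a 95% interval of 16.3 to 48.7. Of the exon bases of Spp1, 18.8% are shared in the annotation with Gm42793, a gene on the same strand. Its symbol was not found among the genes counted.

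Cthrc1, a secreted protein with a short collagen-like repeat that is known from activated fibroblasts, rose almost as far. Cthrc1 (chromosome 15, 39076932 to 39087121, plus strand) had 29.6, 43.8, 63.9, 50.2 and 57.0 CPM in sham 1 to 5, against 1.78, 2.95, 0.869, 1.65 and 1.96 CPM in naive 1 to 5. The lowest sham library was 10.0 times the highest naive library. The rise was 25.9-fold (log2 fold change 4.69 ± 0.26, edgeR adjusted p = 2.11e-08).

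Tenascin C is a large hexameric glycoprotein that modulates cell adhesion and is a marker of matrix under remodelling. Tnc (chromosome 4, 63959785 to 64047015, minus strand) had 82.0, 151, 169, 104 and 149 CPM in sham 1 to 5, against 7.496, 6.77, 3.48, 5.17 and 7.01 CPM in naive 1 to 5. Its lowest sham library, sham 1, was 10.9 times the highest naive library, the widest gap of the 10 genes. The rise was 21.9-fold (log2 fold change 4.46 ± 0.25, edgeR adjusted p = 4.01e-08).

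Periostin binds integrins and collagen, assists collagen cross-linking and is widely used as a marker of activated cardiac fibroblasts. Postn (chromosome 3, 54361109 to 54391037, plus strand) had 85.8, 128, 144, 285 and 223 CPM in sham 1 to 5, against 10.2, 10.9, 10.3, 19.1 and 21.6 CPM in naive 1 to 5. It varied more than most of the class in sham libraries, with sham 4 at 3.32 times sham 1, and the groups were still 3.98 times apart at their nearest. The rise was 11.9-fold with a 95% interval of 6.40 to 22.2 (log2 fold change 3.58 ± 0.40, edgeR adjusted p = 1.20e-04).

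Because Spp1, Tnc and Postn were among the 4 genes with the largest rises, the bases before their start sites are shown, with those of Thbs4, the gene with the smallest rise that passed, for comparison. Sequences are from RefSeq on GRCm38.p6, whose table held 7 of the 10 genes; Cthrc1, Sparcl1 and Thbs1 are named only. Each run gives the 250 bases before a start site, 5′ to 3′ on the gene's strand. Capitals mark the core TATA letters TATAA, the SP1 letters GGGCGG, the RUNX letters TGTGGT and the TEAD letters GGAATG, each searched on both strands, and the AP-1 letters TGANTCA and the serum response element called CArG were searched in the same way.
Postn chr3:54360857-54361106 (plus strand): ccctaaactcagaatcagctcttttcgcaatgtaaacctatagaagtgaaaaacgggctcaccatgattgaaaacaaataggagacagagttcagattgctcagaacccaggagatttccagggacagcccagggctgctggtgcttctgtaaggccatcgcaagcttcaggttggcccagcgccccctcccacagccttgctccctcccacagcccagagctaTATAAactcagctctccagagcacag
Tnc chr4:64047016-64047265 (minus strand): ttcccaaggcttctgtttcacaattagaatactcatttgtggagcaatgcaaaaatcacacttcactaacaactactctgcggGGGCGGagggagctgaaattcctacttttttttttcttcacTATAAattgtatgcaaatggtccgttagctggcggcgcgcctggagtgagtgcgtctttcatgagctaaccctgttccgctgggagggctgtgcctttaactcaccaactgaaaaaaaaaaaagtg
Spp1 chr5:104434861-104435110 (plus strand): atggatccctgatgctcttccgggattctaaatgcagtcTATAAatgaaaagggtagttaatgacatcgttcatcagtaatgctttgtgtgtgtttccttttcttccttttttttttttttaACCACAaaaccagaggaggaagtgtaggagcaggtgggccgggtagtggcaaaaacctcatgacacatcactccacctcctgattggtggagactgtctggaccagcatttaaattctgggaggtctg
Thbs4 chr13:92794819-92795068 (minus strand): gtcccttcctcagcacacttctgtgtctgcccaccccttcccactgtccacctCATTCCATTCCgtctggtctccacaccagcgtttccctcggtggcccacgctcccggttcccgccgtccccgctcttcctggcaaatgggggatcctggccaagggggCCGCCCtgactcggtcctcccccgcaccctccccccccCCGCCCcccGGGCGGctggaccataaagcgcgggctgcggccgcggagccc

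The letters TATAA stood 26 bases before the Postn start site shown, 126 before that of Tnc, which also held GGGCGG at 167 bases, and 211 before that of Spp1. The table lists 2 start sites each for Postn, Tnc and Spp1. In the windows not printed, TATAA was absent for Postn (GC content 40.4%), stood at 205 and 27 bases for Tnc and at 238 bases for Spp1. For Postn the site nearer to the annotated gene start was printed, and for Tnc and Spp1 the first listed. None was found in the Thbs4 window. Over all 32851 windows of this length in the table, 22.8% hold TATAA. The RUNX letters lay 128 bases before the Spp1 start, on the opposite strand (14% of all windows). The Thbs4 window held the TEAD letters at 197 and 192 bases before the start, with the 2 matches overlapping by 1 base (12.6% of windows), and 3 matches of GGGCGG, which 32.7% of windows hold. Its GC content was 70.8%, against 52% for Postn, 44.8% for Tnc and 43.6% for Spp1 and a median of 52.4% over all windows. Neither the AP-1 letters (6.75% of windows) nor CArG (1.47%) was found in any window of the 7 genes. The letters CAGAC, a SMAD-binding sequence that is not in capitals, are held by 42.2% of all windows. They lay at 33 and 5 bases before the Spp1 start and at 226 and 186 bases before that of Thbs4. The printed Postn and Tnc windows held no CAGAC, but the windows not printed did, at 191 bases for Postn and 70 for Tnc. The Spp1 window not printed held it at 41 bases. These matches describe letters in the windows, not sites at which a factor was measured.

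Sparc and Sparcl1 encode related proteins. Sparc binds collagen and assists its assembly into fibres, and Sparcl1 (hevin) is known from blood vessels and brain. Sparc (chromosome 11, 55394500 to 55423183, minus strand) had 1246, 1616, 1854, 1768 and 1865 CPM in sham 1 to 5, against 566, 457, 457, 554 and 528 CPM in naive 1 to 5. It was the most abundant gene of the class in every library and held 65.8% of the reads of the 10 genes in sham and 60.1% in naive libraries. The rise was 3.26-fold (log2 fold change 1.70 ± 0.12, edgeR adjusted p = 2.91e-08). The 10 genes together took 0.202% to 0.329% of all counts in sham and 0.0694% to 0.0865% in naive libraries.

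Sparcl1 (chromosome 5, 104079111 to 104113733, minus strand) had 228, 251.8, 224, 268 and 245 CPM in sham 1 to 5, against 217, 222, 244, 322 and 279.8 CPM in naive 1 to 5. All sham libraries lay within the naive range, and naive 4 and naive 5 lay above every sham library. The log2 fold change was -0.08 ± 0.11 (edgeR adjusted p = 0.618), with a 95% interval of -0.31 to 0.15, or 0.808 to 1.11 as a fold. Its sign followed the scaling, since with library size alone it was 0.19, also not past the threshold. Sparc and Sparcl1 differed in their change within libraries, a comparison that needs no scaling between libraries. The ratio of Sparc to Sparcl1 counts was 5.45 to 8.28 in sham and 1.72 to 2.60 in naive libraries. The log2 ratio was 1.76 ± 0.15 higher in sham (SE, n = 5 per group, exact two-sided permutation p = 0.00794, adjusted p = 0.0278 over 7 pairs of genes), and 0.00794 is the smallest p that 5 against 5 libraries allow.

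**Figure D2:**
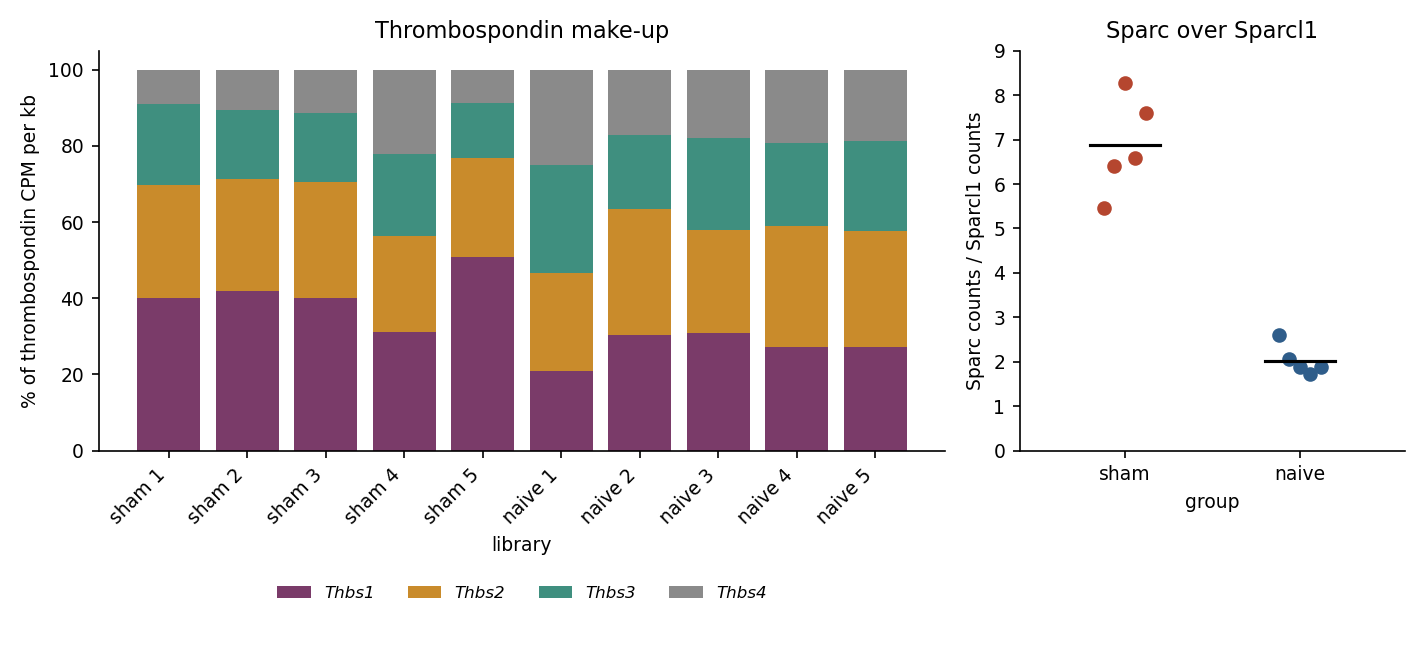
Left, the share of each thrombospondin in the summed CPM per kilobase of the 4 genes, in percent, for each library, sham first. Right, the ratio of Sparc to Sparcl1 counts per library, with bars for group means (n = 5 each); sham libraries lie between 5.45 and 8.28 and naive libraries between 1.72 and 2.60.

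The thrombospondins fall into a trimeric pair, Thbs1 and Thbs2, which inhibit vessel growth through CD36 and CD47, and a pentameric pair, Thbs3 and Thbs4. Thbs1 is also an activator of latent TGF-beta. Thbs4 is known from tendon and muscle, and in mouse heart for a role in the stress response of the endoplasmic reticulum.

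Thbs1 (chromosome 2, 118111876 to 118127133, plus strand) had 78.7, 109, 125, 70.3 and 164 CPM in sham 1 to 5, against 10.9, 19.7, 18.6, 16.9 and 14.6 CPM in naive 1 to 5. Thbs2 (chromosome 17, 14665500 to 14694235, minus strand) had 67.2, 88.0, 109.8, 65.3 and 96.5 CPM in sham 1 to 5, against 15.7, 24.8, 18.6, 23.0 and 19.1 CPM in naive 1 to 5. In both genes sham 4 was the lowest sham library, followed by sham 1, and the groups did not overlap. Thbs1 rose 6.71-fold (log2 fold change 2.75 ± 0.24, edgeR adjusted p = 3.21e-06) and Thbs2 4.20-fold (2.07 ± 0.16, edgeR adjusted p = 9.93e-08).

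Thbs3 (chromosome 3, 89215180 to 89226837, plus strand) had 33.3, 37.3, 44.9, 38.8 and 36.9 CPM in sham 1 to 5, against 11.8, 9.97, 11.5, 10.7 and 10.0 CPM in naive 1 to 5. It was the most even of the higher genes, with the highest sham library at 1.35 times the lowest and the highest naive library at 1.18 times the lowest. Thbs3 rose 3.55-fold (log2 fold change 1.83 ± 0.10, edgeR adjusted p = 5.11e-09). It shares 6.59% of its exon bases with Mtx1 on the opposite strand, whose own log2 fold change was -0.01 (edgeR adjusted p = 0.952).

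Thbs4 (chromosome 13, 92751590 to 92794818, minus strand) had 9.44, 14.996, 19.2, 27.0 and 15.4 CPM in sham 1 to 5, against 7.14, 6.03, 5.85, 6.51 and 5.49 CPM in naive 1 to 5. The groups came closest here among the 9 higher genes, with sham 1 at 1.32 times the highest naive library, and sham 4 stood highest. Thbs4 rose 2.81-fold with a 95% interval of 2.03 to 3.88 (log2 fold change 1.49 ± 0.22, edgeR adjusted p = 9.67e-05). Markers of skeletal muscle, cartilage, bone and tendon, other tissues that make Thbs4, were low: the 7 muscle markers summed to 5.37 to 7.41 CPM in sham and 4.74 to 6.27 CPM in naive libraries, with 1 of 5 tested lower and 0 higher. Among all tested genes 15.5% were lower and 17.2% higher, so 1 lower of 5 is near the share of all genes. The untested muscle marker Pvalb had 89 counts in sham and 8 in naive libraries, and was highest in sham 4, at 2.59 CPM against 0.139 to 0.774 CPM in the other sham libraries; its part in the Thbs4 value of sham 4 was not tested. The 8 cartilage, bone and tendon markers summed to 16.1 to 23.6 CPM in sham and 15.97 to 23.7 CPM in naive libraries, nearly all of it from the factor Scx.

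Levels of different thrombospondins can be compared per exon length. Thbs1 took 40.8% ± 6.995 of the summed thrombospondin CPM per kilobase in sham and 27.3% ± 4.03 in naive libraries (SD, n = 5). Thbs2 took 28.1% ± 2.43 in sham and 29.7% ± 3.15 in naive libraries, and Thbs3 18.7% ± 2.96 in sham and 23.4% ± 3.29 in naive libraries. The share of Thbs4 was 12.4% ± 5.54 in sham and 19.6% ± 3.14 in naive libraries, with sham 4 at 22.1%.

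Within libraries, Thbs1 rose more than Thbs2, by 0.65 ± 0.15 on the log2 scale (exact permutation p = 0.00794, adjusted p = 0.0278 over 7 pairs). It also rose more than Thbs3, by 0.90 ± 0.28 (exact permutation p = 0.0159, adjusted p = 0.0370). The other 4 pairs of thrombospondins did not pass. The difference was 1.33 ± 0.40 for Thbs1 over Thbs4 (exact permutation p = 0.0317, adjusted p = 0.0556), 0.68 ± 0.32 for Thbs2 over Thbs4 (adjusted p = 0.0833, exact), 0.43 ± 0.21 for Thbs3 over Thbs4 (adjusted p = 0.0833, exact) and 0.25 ± 0.19 for Thbs2 over Thbs3 (adjusted p = 0.238, exact). The pairs with Thbs4 depended on sham 4. Without sham 4 the differences over Thbs4 were 1.65 for Thbs1, 0.95 for Thbs2 and 0.60 for Thbs3, each at an exact adjusted p of 0.0185. Thbs1 over Thbs4 also passed with all libraries when 5 was added to each count (1.35, exact permutation adjusted p = 0.0417). With any library left out the smallest possible p is 0.0159. The pairs that passed kept their direction in each case, and Sparc over Sparcl1 and Thbs1 over Thbs2 both stood at an exact adjusted p of 0.0556 without sham 1, 2, 3 or 5 or naive 1, 3, 4 or 5. Thbs1 over Thbs3 stood at 0.0741 (exact) without each of the same libraries.

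Ordered per exon length, the sham libraries ran from Sparc at 441 ± 67.9 CPM per kilobase through Sparcl1 at 82.9 ± 6.12, Cthrc1 at 30.7 ± 8.24, Postn at 19.9 ± 9.18, Thbs1 at 18.0 ± 6.20, Tnc at 16.9 ± 4.68, Thbs2 at 12.2 ± 2.73, Spp1 at 9.84 ± 3.38 and Thbs3 at 7.93 ± 0.875 to Thbs4 at 5.23 ± 1.97 (SD, n = 5). From Cthrc1 downward each gene overlapped its neighbour in the order. The naive order was Sparc at 135 ± 13.8, Sparcl1 at 87.5 ± 14.9, Thbs2 at 2.89 ± 0.518, Thbs1 at 2.66 ± 0.575, Thbs3 at 2.24 ± 0.173, Thbs4 at 1.89 ± 0.194, Postn at 1.66 ± 0.632, Cthrc1 at 1.16 ± 0.469, Tnc at 0.770 ± 0.212 and Spp1 at 0.329 ± 0.194. There too only the first 2 steps separated neighbouring genes. The 4 genes of largest fold thus held the 4 lowest places in naive ventricles, and in sham ventricles Cthrc1 and Postn came next after Sparcl1. With the longest transcript in place of all exon bases Postn moved up to the fifth place in the naive order.

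**Figure D3:**
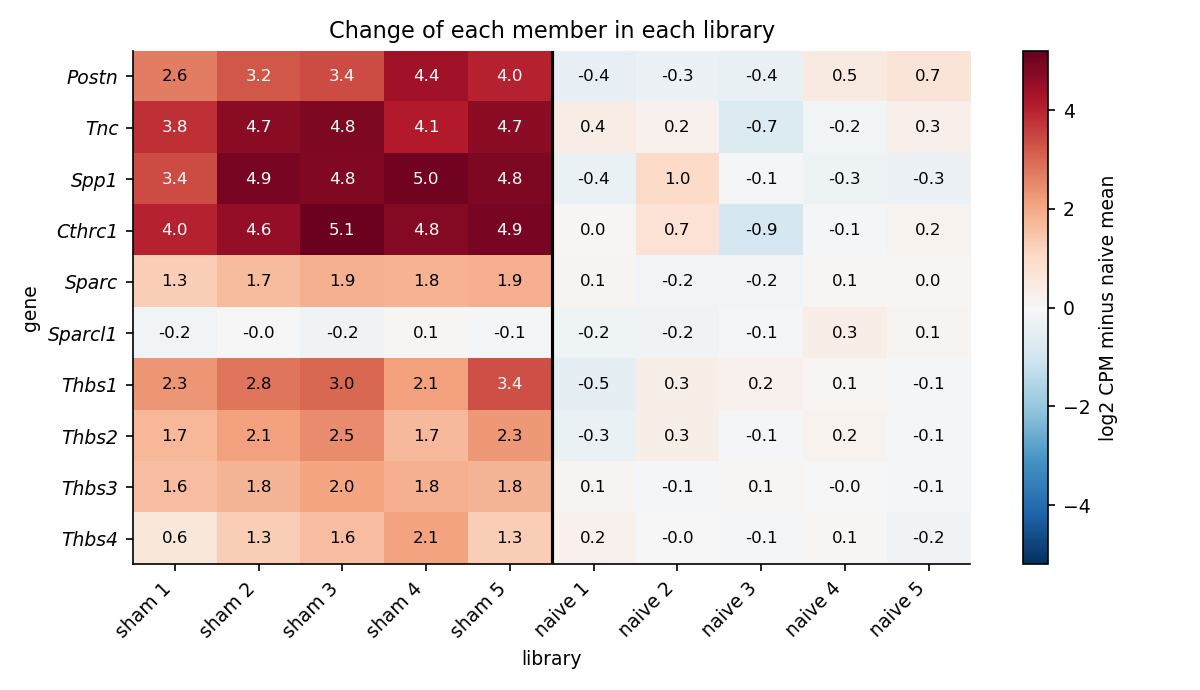
Log2 CPM of each gene (rows) in each library (columns, sham left of the line) minus the gene's mean over the 5 naive libraries. Sham values of the 9 higher genes run from 0.60 in Thbs4 of sham 1 to 5.11 in Cthrc1 of sham 3, and those of Sparcl1 from -0.18 to 0.08.

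The sham libraries differed in which genes they led. Sham 1 was the lowest sham library for 7 of the 10 genes and the highest for 0. Sham 3 was the highest for 4 (Tnc, Cthrc1, Thbs2 and Thbs3), sham 4 for 4 (Postn, Spp1, Sparcl1 and Thbs4) and sham 5 for 2 (Sparc and Thbs1). In sham 4, Postn and Thbs4 were at their highest while Thbs1 and Thbs2 were at their lowest. Sham 4 also had the most genes detected, 24214 against 20842 to 22570 in the other sham libraries. Its TMM factor was the lowest of the sham libraries, 1.04 against 1.09 to 1.15. Col1a1 and Fn1 were lowest in sham 4 among the sham libraries as well. The part of these traits of the library in its values was not tested. The median change of the 10 genes was 2.02 in sham 1, 2.45 in sham 2, 2.71 in sham 3, 2.12 in sham 4 and 2.81 in sham 5, all as log2 against the naive mean. Every library left out in turn, and naive 1 and sham 4 left out together, gave the same 9 genes as higher.

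Outside the 10 genes, a list of 17 further matricellular genes (the CCN family, other tenascins, and relatives of periostin, Sparc and the thrombospondins) held 13 that could be tested. Of these 7 were higher, 1 lower and 5 not past (median log2 fold change 0.86, against -0.05 for all tested genes; 17.2% of tested genes were higher and 15.5% lower). Tenascin N (Tnn) had 5.28, 8.05, 9.46, 3.97 and 7.62 CPM in sham 1 to 5, against 0.119, 0.615, 0.316, 0.0784 and 0.379 CPM in naive 1 to 5. Its log2 fold change of 4.35 ± 0.36 (edgeR adjusted p = 2.14e-07) was near that of Tnc, on 22 counts in all naive libraries together. Fstl1, a secreted relative of Sparc, stood at 350.0 ± 68.3 CPM in sham and 74.1 ± 13.3 CPM in naive libraries (log2 fold change 2.24 ± 0.15, edgeR adjusted p = 2.97e-08).

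The CCN family went in more than one direction. Ccn4 (Wisp1) rose by 2.45 ± 0.25, Ccn5 (Wisp2) by 2.14 ± 0.17, Ccn3 (Nov) by 1.72 ± 0.27 and Ccn2, connective tissue growth factor, by 0.86 ± 0.10, all on the log2 scale (edgeR adjusted p of 1.51e-04 or less). Ccn1 (Cyr61), an early-response member, had 93.6 ± 11.4 CPM in sham and 113.7 ± 14.9 CPM in naive libraries (log2 fold change -0.28 ± 0.10, edgeR adjusted p = 0.0495). That call was lost in 16 of 23 alternatives, among them each of 8 single libraries left out (-0.20 to -0.29, sham 2 and naive 5 being the exceptions) and library size alone, where the value was -0.01. The periostin relative Tgfbi rose by 1.24 ± 0.13 (edgeR adjusted p = 1.61e-06). Tnxb, the tenascin of connective tissue, was at 434 ± 70.2 CPM in sham and 410.2 ± 67.3 CPM in naive libraries and did not pass (edgeR adjusted p = 0.660). Nor did Comp, the fifth thrombospondin, at 0.40 ± 0.23 (edgeR adjusted p = 0.205), or the Sparc relatives Smoc1, Smoc2 and Spock2, at -0.22, -0.23 and -0.37. Tnxb (0.35) and Comp (0.66) passed as higher with library size alone. Smoc2 passed as lower without naive 1 (-0.28, edgeR adjusted p = 0.0181), and Spock2 did so without sham 1 (-0.50, edgeR adjusted p = 0.0182) or naive 4 (-0.46, edgeR adjusted p = 0.0332). Ccn6, Spock1, Spock3 and Tnr were too low to be tested.

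**Figure D4:**
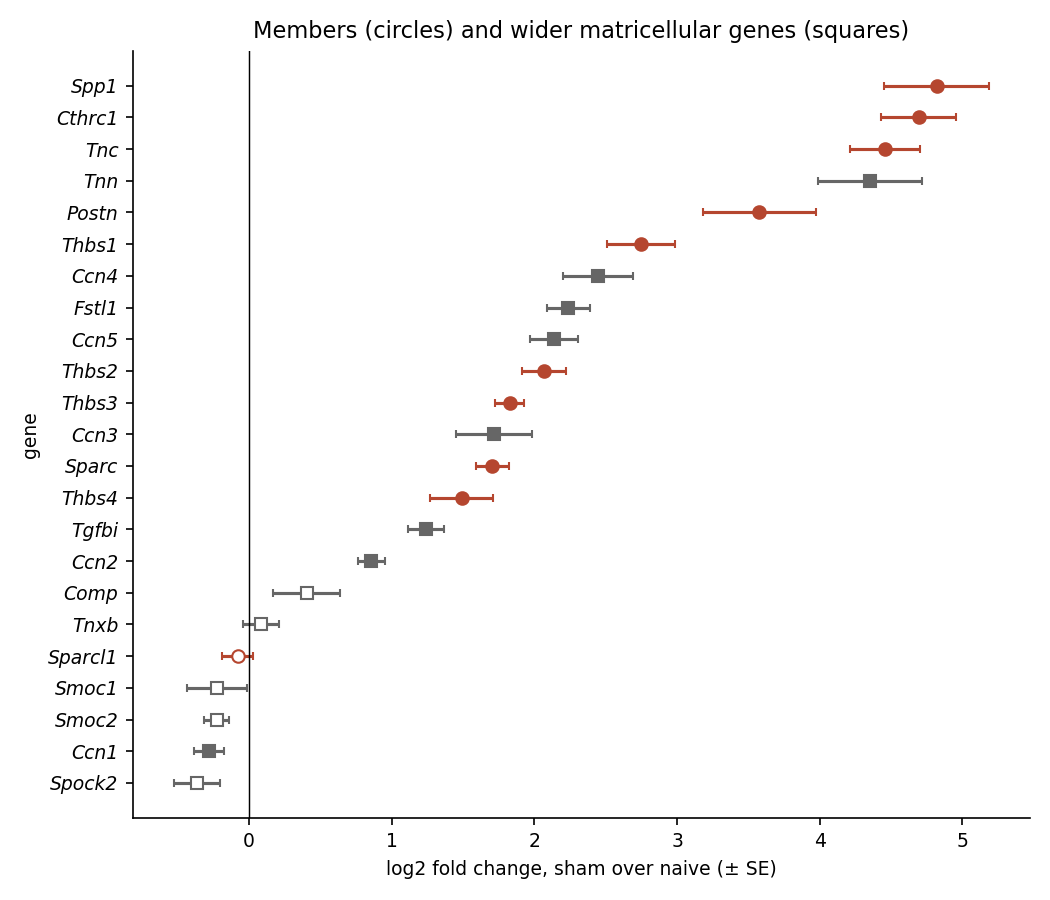
Log2 fold change of sham over naive ± SE for the 10 genes (red circles) and the 13 tested genes of the wider matricellular list (grey squares); filled symbols passed the edgeR threshold. Values run from 4.82 in Spp1 to -0.37 in Spock2, and the 4 genes above 4 are Spp1, Cthrc1, Tnc and Tnn.

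Of 19 listed receptors, most of them for these proteins or for collagen, 11 were higher, 3 lower and 5 not past (median log2 fold change 0.32), where 17.2% of all tested genes were higher and 15.5% lower. With a library left out, 8 to 14 receptors were higher and 2 to 4 lower. The 19 include Plxdc1 (lower) and Plxdc2 (higher), for which no ligand among these proteins is named here. The higher calls of Plxdc2 and of the collagen receptor Ddr2 were each lost in 5 of 23 alternatives. The 3 lower of 19 are a share near that of all genes. CD44, a receptor of osteopontin and hyaluronan, stood at 34.1 ± 11.7 CPM in sham and 7.33 ± 1.54 CPM in naive libraries (log2 fold change 2.22 ± 0.23, edgeR adjusted p = 5.25e-06). The integrin chain Itgb3 rose by 2.08 ± 0.20 (edgeR adjusted p = 1.00e-06), whereas its partner Itgav, which forms receptors of periostin and osteopontin, was at 0.32 ± 0.14 (edgeR adjusted p = 0.0966). Itgav passed as higher in 7 of 23 alternatives, among them without sham 4 (0.47, edgeR adjusted p = 0.00234), with the replicate block and with library size alone. Itga4, a leukocyte integrin chain that also binds osteopontin, rose by 1.85 ± 0.22. Ror2, a Wnt receptor to which Cthrc1 binds, rose by 1.46 ± 0.13, Stab1, the macrophage receptor that clears Sparc, by 0.94 ± 0.09, and Lrp1, which takes up thrombospondins, by 0.75 ± 0.12.

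Lower were Cacna2d1, a calcium channel subunit that binds thrombospondins, at -0.66 ± 0.14, Itga9, a tenascin and osteopontin receptor chain, at -0.42 ± 0.09, and Plxdc1 at -0.37 ± 0.11. With library size alone, 0 of the 19 passed as lower, and the values were -0.39 for Cacna2d1, -0.15 for Itga9 and -0.10 for Plxdc1. Plxdc1 also did not pass without sham 5 (-0.31, edgeR adjusted p = 0.0683) or without naive 2 (-0.33, edgeR adjusted p = 0.0534). The thrombospondin receptor Cd47 rose by 0.26 ± 0.09 (edgeR adjusted p = 0.0376), a call lost in 9 of 23 alternatives, with any library but sham 4 or naive 4 left out (0.21 to 0.28, edgeR adjusted p up to 0.0861) and with no filter on low counts, and Cd36 was at -0.39 ± 0.19 and did not pass. Without naive 1 it passed as lower at -0.54 (edgeR adjusted p = 0.00299).

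**Figure D5:**
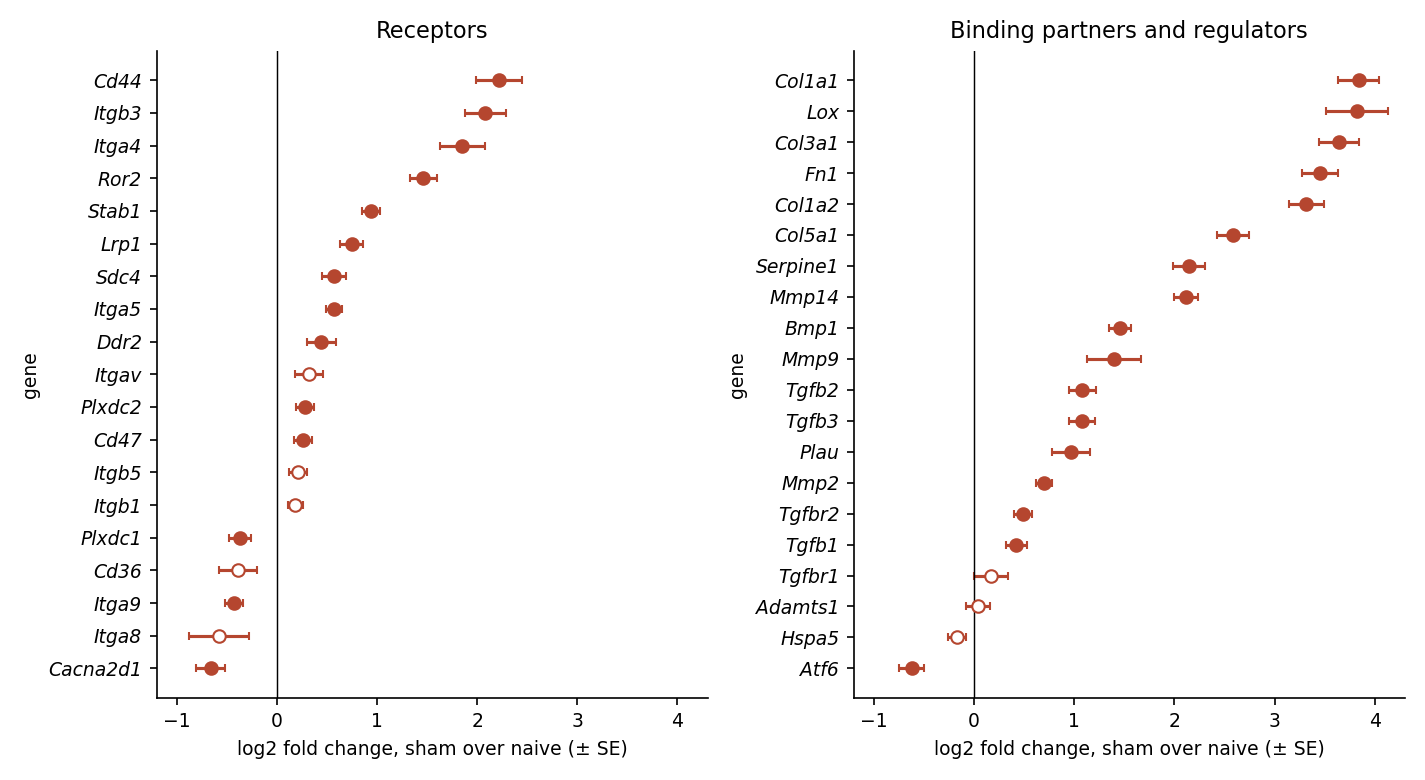
Log2 fold change of sham over naive ± SE for the receptors (left, 19 genes) and the binding partners and regulators (right, 20 tested genes); filled circles passed the edgeR threshold. Cd44 at 2.22 leads the receptors and Col1a1 at 3.84 the partners; Cacna2d1 at -0.66 and Atf6 at -0.62 are the lowest of each panel.

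Among 21 listed binding partners, proteases and regulators, 20 could be tested, of which 16 were higher, 1 lower and 3 not past (median log2 fold change 1.24), against 17.2% higher and 15.5% lower among all tested genes. Fibronectin (Fn1), to which periostin and tenascin C bind, stood at 1440.1 ± 368 CPM in sham and 131 ± 21.6 CPM in naive libraries (log2 fold change 3.46 ± 0.18, edgeR adjusted p = 5.20e-09). The collagen chains Col1a1, Col3a1 and Col1a2 rose by 3.84 ± 0.21, 3.64 ± 0.20 and 3.32 ± 0.17. Bmp1, a procollagen protease that periostin binds, rose by 1.46 ± 0.11, and Mmp14, a membrane-bound metalloproteinase, by 2.12 ± 0.12. The TGF-beta ligands Tgfb2 and Tgfb3 rose by 1.08 ± 0.13 each and Tgfb1, the ligand that Thbs1 is best known to activate, by 0.42 ± 0.10 (edgeR adjusted p = 0.00542). Atf6, the endoplasmic reticulum stress sensor linked to Thbs4 in mouse heart, was the lower one, at 63.2 ± 7.74 CPM in sham and 97.4 ± 18.6 CPM in naive libraries (log2 fold change -0.62 ± 0.12, edgeR adjusted p = 0.00118). With library size alone it did not pass (-0.36, edgeR adjusted p = 0.0624). The chaperone Hspa5 was at -0.17 ± 0.09 and did not pass (edgeR adjusted p = 0.186), and its sign turned with library size alone (0.10). Without sham 1 it passed as lower (-0.25, edgeR adjusted p = 0.0336).

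Markers of the cell types in the ventricle moved unequally, and no listed marker was at 0 counts in all libraries. Their counts are read against the 17.2% of all tested genes that were higher and the 15.5% that were lower. The marker counts here and in the next paragraph are those of the TMM scaling alone. With library size alone, 283 of all genes were lower, against 2113, and the median log2 fold change was 0.22, against -0.05. Lower calls of small size, such as Myh6 at -0.34 or Cdh5 at -0.21, are therefore tied to the scaling chosen. Of 7 ventricular myocyte markers 6 were lower, 0 higher and 1 not past, with summed levels of 54749 to 62454 CPM in sham and 72890.1 to 76663 CPM in naive libraries. Of 8 fibroblast markers 4 were higher, 0 lower and 4 not past (median log2 fold change 0.43), and their summed level overlapped, at 1801 to 2184 CPM in sham and 1798 to 2175 CPM in naive libraries, most of it from Gsn. Of 6 markers of activated fibroblasts and myofibroblasts 3 were higher and 3 not past (median 0.76), with summed levels of 230.0 to 473 CPM in sham and 170.1 to 295 CPM in naive libraries. Macrophage markers were higher in 8 of 8 cases (median 1.74), with summed levels of 733 to 939 CPM in sham and 253 to 307 CPM in naive libraries, without overlap. Both tested neutrophil markers were higher, from a list of 4 that summed to 14.4 to 31.3 CPM in sham and 1.74 to 4.74 CPM in naive libraries.

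Of 6 platelet markers, whose cells store Thbs1, 3 could be tested: Pf4 was higher (25.2 ± 5.83 CPM in sham and 9.78 ± 1.59 CPM in naive libraries), Gp1ba lower and Itga2b not past, and the other 3 had 14 to 20 counts per group. The 6 platelet markers summed to 28.9 to 42.1 CPM in sham and 15.1 to 23.4 CPM in naive libraries. Of 6 endothelial markers 1 was higher, 3 lower and 2 not past (780.1 to 904 CPM in sham and 853 to 1074 CPM in naive libraries), and of 5 mural cell markers 0 were higher, 1 lower and 4 not past (586 to 663 CPM in sham and 574 to 654 CPM in naive libraries). The 1 higher endothelial and the 1 lower mural marker are shares near those of all genes. Of 7 mesothelial markers, 0 were higher, 3 lower, 3 not past and 1 not tested (20.1 to 32.8 CPM in sham and 40.1 to 61.8 CPM in naive libraries). Red cell genes did not pass in any of 5 cases, with summed levels of 68.3 to 293 CPM in sham and 44.2 to 359 CPM in naive libraries. The part of these cell types in the rises of the 9 genes was not tested.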

How the data were processed

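The authors deposited a table of whole-number read counts for Ensembl genes, with 1 column for each library per the file headers. HTSeq and the build GRCm38 are named in the submitters' processing notes; Bowtie2, TopHat2 2.1.1, DESeq and edgeR are also named there without roles. Annotation release, counting mode and strand setting: not given in the sources used here. GC content, which the authors deposited as a percent, served only for a GC offset. Of 41264 rows, 574 repeated an identifier with identical counts and were collapsed; 0 rows named no gene. Within groups, the chi-square per degree of freedom between any pair of libraries was 9.20 or more.

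Genes passing filterByExpr (minimum count 10, minimum total 15) were scaled by TMM and tested with edgeR 4.0.16 (quasi-likelihood F test, robust, group alone) in R 4.3.3, at a Benjamini-Hochberg adjusted p under 0.05 over all 13622 genes. Log2 CPM per library (changes by library, principal components, neighbours and the GC offset) uses a prior count of 2. Log2 fold changes come from the edgeR fit at its own default. The SE of an edgeR log2 fold change was derived from the F statistic, as the absolute value over the square root of F. The 95% intervals apply the t distribution to that SE, so they follow from the test and are not a separate estimate. Paralog ratios add 0.5 to each count and use exact two-sided permutation over libraries. The fit was tested on simulated data. Coordinates and exon lengths are from GENCODE M21 on GRCm38; of the 50-base windows of each gene's transcripts, 0% to 3.54% also occur in another gene, except 11.6% for Spp1. Libraries are single samples per the labels, with nothing on housing or handling, and p-values therefore reflect only the spread among these samples; the floor of 3 counts covers counting error only.

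The members and lists were chosen with earlier results of these data known. Named are the 10 members, up to 6 genes of smallest p from each list and those that go against it, further listed genes named after their values were seen, and some of the 3 genes nearest to each member in pattern; the others are not reported here. Alternatives were DESeq2 1.42.0, limma 3.58.1 voom with sample weights, upper quartile and RLE factors, scaling by library size alone, removal of the 20 most abundant features, 2 other filters, no robust estimation, a replicate block, a GC offset with and without that block, each library left out, naive 1 and sham 4 left out together, 5 added to each count of a ratio, and longest transcript length.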

Additional observations from a re-analysis of the deposited data

Results flagged for a closer look

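Among 20 sets of 5 libraries (10 genes in 2 groups), 2 held a library whose gap to its nearest neighbour exceeded 0.71 of the whole range, the 95% limit of Dixon's test, and both were of Spp1. Chance flags about 1 in 20 such sets. In sham 1, Spp1 stood at 6.41 CPM, below the next sham library at 17.6 CPM (gap 0.822 of the range). In naive 2, it stood at 1.11 CPM, on 18 counts, above the next naive library at 0.474 CPM (gap 0.844 of the range). Sham 1 was also the lowest sham library for 6 other genes of the class.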

How the results depend on the processing

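The 9 genes that rose did so in all 23 alternative fits, and 0 members were lower in any; their log2 fold changes ranged from 1.30 (Thbs4 without sham 4) to 5.31 (Spp1 without naive 2). Sparcl1 did not pass in any of the 23 (-0.14 to 0.19, lowest with naive 1 and sham 4 both left out and highest with library size alone). With library size alone the median log2 fold change of all genes moved from -0.05 to 0.22, and 4473 genes were higher and 283 lower (94.0% higher, against 52.6%). With limma voom 3243 genes were lower, and leaving out 1 library gave 2132 to 2461 higher and 1465 to 2249 lower. In the wider matricellular list the lower count of 1 was 0 with DESeq2, RLE, upper quartile, library size alone, the 1 CPM filter and no robust estimation, 3 with limma voom, 2 with the GC offset with or without the replicate block, and 0 to 1 with a library left out. Library size alone also gave 0 lower receptors and 0 lower partners, and a library left out gave 1 to 2 lower partners. With 5 added to each count, Thbs1 over Thbs4 passed at 1.35 (exact permutation adjusted p = 0.0417). With a library left out the differences were 1.69 to 1.85 for Sparc over Sparcl1, 0.54 to 0.73 for Thbs1 over Thbs2, 0.73 to 1.05 for Thbs1 over Thbs3, 1.14 to 1.65 for Thbs1 over Thbs4, 0.54 to 0.95 for Thbs2 over Thbs4 and 0.28 to 0.60 for Thbs3 over Thbs4. The cause of these differences was not tested, except that fewer libraries raise the smallest possible p.

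Same-numbered sham and naive libraries deviated together with a correlation across genes of 0.01 to 0.29, below 0.1 for numbers 2 and 3, so the numbers were not taken as pairs, and 3 of 5 sham libraries correlated best with their own number. On the second principal component, with 15.9% of the variance, sham 1 to 5 stood at 16.4, 4.96, 2.89, -14.7 and -9.52. Naive 1 to 5 stood at 38.7, 11.9, 3.93, -26.5 and -28.0, so both groups ran from number 1 down to numbers 4 and 5. Postn was likewise higher in numbers 4 and 5 than in 1 to 3 in both groups. What this shared order reflects was not tested. With the replicate block 2592 genes were higher and 2801 lower, 9 members higher and 0 lower, and 14 receptors higher against 11, with Itgav (0.30, edgeR adjusted p = 0.0250), Itgb1 and Itgb5 added. Depth limits Spp1 and Tnn, at 38 and 22 counts over all naive libraries, and the markers Ccr2 and S100a9, at 21 and 23. It also limits Clec4d, named below, which was under the floor in every naive library.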

Other observations

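The genes outside the 10 members whose pattern over the 10 libraries lay nearest to each member were ranked by the root mean square difference in log2 CPM after centring each gene on its naive mean, as a description with no test. P4ha3, a subunit of collagen prolyl hydroxylase, was the nearest such gene to both Tnc (0.27) and Cthrc1 (0.31) and the second nearest to Spp1 (0.49), and it averaged 14.9 CPM in sham and 0.527 CPM in naive libraries. Timp1, an inhibitor of metalloproteinases, was the nearest such gene to Spp1 (0.46) and among the nearest 3 of Tnc and Cthrc1, and Arg1, a macrophage arginase, was among the nearest 3 of Spp1 and Cthrc1. Col1a1 was also among the nearest 3 of Tnc (0.48). Sparc lay nearest to the membrane protein Fxyd5 (0.10) and to biglycan (Bgn, 0.13), a matrix proteoglycan at 921 CPM in sham and 311 CPM in naive libraries.

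Thbs1 lay nearest to the leukocyte integrin chain Itgam (0.32) and the cytokine receptor chain Csf2rb (0.35), followed by the lactate carrier Slc16a3 (0.35). Thbs2 lay nearest to the myosin genes Myo1f (0.13) and Myo1g (0.19) and to Tsku (0.19), which encodes a secreted proteoglycan, and Thbs3 to Fermt3, the kindlin of blood cells (0.11), the complement factor Cfp (0.12) and Fxyd5 (0.12). Thbs4 lay nearest to the interferon-induced genes Bst2 (0.19) and Ifitm3 (0.20), which like Thbs4 were highest in sham 4, at 95.2 and 289 CPM. For Postn, the nearest was Clec4d (0.28), a myeloid lectin at 1.13 to 2.77 CPM in sham and 0 to 0.126 CPM in naive libraries. Every naive value of Clec4d was below the floor of 3 counts. Its log2 fold change was 4.98, against 3.58 for Postn. The prior count of 2 in the log2 CPM narrows differences at such low levels. Sparcl1 lay nearest to Uspl1 (0.06), Cct5 (0.07) and Fbxo25 (0.08), none of which passed the threshold. Among the 10 genes themselves, Tnc and Cthrc1 were nearest to each other (0.32), as were Sparc and Thbs3 (0.17), and Spp1 lay nearer to Cthrc1 (0.43) than to any gene outside the 10. The median distance to a tested gene was 0.34 for Sparcl1 and 1.09 to 3.38 for the other 9.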
